A study of Arabidopsis thaliana with 24 samples.

Results

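The 60 genes described here were chosen by their read counts in 4 of the 8 genotypes of a study of Arabidopsis seedlings. Their mean level in the bte1 btl1 double mutant was at least 1.7 times that in the btl1 single mutant and at least 1 CPM (reads scaled to a common total of each library). Every bte1 btl1 library lay above every btl1 library, and the mean of bte1 over the mean of WT was under 1.2. Of 33612 features in the count table, 19520 reached 1 CPM in bte1 btl1, 311 of them reached the ratio to btl1 and 271 of those had libraries that did not overlap. Among these, 208 were left out because bte1 was at least 1.2 times WT, and 3 (AT1G20750, AT1G58050 and AT5G59230) because WT had no read and no ratio could be formed, which left the 60.

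Each genotype was sequenced in 3 libraries that the study calls biological replicates, made from poly(A) RNA of whole seedlings. All seedlings were 9 days old and came from continuous white light. The genotypes were WT (the Col-0 ecotype), the single mutants hid1, bte1 and btl1, the double mutants bte1 hid1, bte1 btl1 and hid1 phil1, and the triple mutant e2fa e2fb e2fc, called e2f here. HID1 is a noncoding RNA gene of light responses, and phil1 changes the promoter next to HIL1, a related RNA gene. The alleles and the number of seedlings in each sample are not given in the sources used here. The deposited values fall into 2 sets of libraries, with btl1, bte1 btl1 and e2f (9 libraries) in one and the other 5 genotypes (15 libraries) in the other, so bte1 btl1 and btl1 could be set against each other within a set, while btl1, bte1 btl1 and e2f can be compared with WT only across sets. Libraries held 14309396 to 23912716 counted reads, the fewest in btl1 and bte1 btl1.

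The DREAM complex is a group of proteins, conserved between plants and animals, that binds promoters of cell-cycle genes and keeps them low in cells that are not dividing. In plants it joins E2F transcription factors and their DP partners, the retinoblastoma protein RBR1, MYB3R factors and CXC-domain proteins. E2F factors recognise a short GC-rich element found in genes of DNA replication and repair, MYB3R factors an AACGG core found in genes of mitosis, and CXC-domain proteins bind CHR elements. The title of the series names this complex and WDR5a, a subunit of the enzymes that methylate lysine 4 of histone H3. BTE1 and BTL1 carry no such names in the reference, so their own transcripts were not checked here. HID1 had no read in any hid1 or bte1 hid1 library and 0, 9 and 0 reads in hid1 phil1, against 163 to 215 in WT, so replicate 2 of hid1 phil1 was the library labelled hid1 that held reads on the gene. E2FA and E2FC were higher in the e2f libraries (31.9 and 48.5 CPM) than in WT (8.76 and 11.5 CPM), so gene counts gave no check of that genotype.

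Of the 60 genes, 53 code for proteins, 2 are noncoding RNAs, 1 is a transcribed pseudogene and 4 are not in the reference annotation. They lie on chromosomes 1 to 5 in numbers of 10, 13, 16, 10 and 7, and the closest pair is 64548 bases apart, so no cluster of neighbours was seen. The ratio of bte1 btl1 to btl1, which chose the members, ran from 1.701 to 8.30 with a median of 2.004, and 30 members reached 2-fold. Levels were low: 39 members were under 5 CPM in bte1 btl1 and 15 under 2 CPM. The lowest of them, ATCG01010, had 21, 12 and 13 reads in the bte1 btl1 libraries and 12, 4 and 10 in btl1, so single values at that level carry a large counting error.

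The rule did not use promoter sequence, and an E2F site marked some of the members. Windows of 300 bases, from 250 before to 50 after the annotated start, were taken from TAIR10.1 for the 53 protein-coding members and for all 27443 protein-coding genes. An E2F site, spelled TTTCCCGC, TTTCGCGC, TTTGCCGC or TTTGGCGC and searched on both strands, was present in 13 members (24.5%) and in 483 promoters of all (1.76%). The other 40 members with a window held none of these spellings. The sequences below are the 250 bases before the start of 6 members, read 5′ to 3′ on the strand of the gene, with the E2F site in capitals (written in its reverse complement where the site is on the opposite strand). They are shown because 5 of them are the replication, repair and meiosis members whose site lies before the start, in 4 cases within 20 bases of it. AT3G48540, of a deaminase family, is a member not placed in those groups, with a site farther upstream.
ORC2 (chr2:15758351-15758600, plus strand): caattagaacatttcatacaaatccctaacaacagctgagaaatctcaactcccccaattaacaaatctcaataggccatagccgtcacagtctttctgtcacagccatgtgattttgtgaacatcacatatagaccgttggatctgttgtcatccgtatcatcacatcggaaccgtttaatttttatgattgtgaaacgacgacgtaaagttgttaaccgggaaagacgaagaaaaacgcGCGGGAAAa
AT1G07270 (chr1:2233018-2233267, minus strand): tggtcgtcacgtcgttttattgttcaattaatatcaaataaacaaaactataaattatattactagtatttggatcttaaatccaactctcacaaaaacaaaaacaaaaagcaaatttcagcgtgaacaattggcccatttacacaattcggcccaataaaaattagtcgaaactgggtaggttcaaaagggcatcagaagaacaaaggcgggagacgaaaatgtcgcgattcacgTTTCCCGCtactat
GR1 (chr3:19325785-19326034, plus strand): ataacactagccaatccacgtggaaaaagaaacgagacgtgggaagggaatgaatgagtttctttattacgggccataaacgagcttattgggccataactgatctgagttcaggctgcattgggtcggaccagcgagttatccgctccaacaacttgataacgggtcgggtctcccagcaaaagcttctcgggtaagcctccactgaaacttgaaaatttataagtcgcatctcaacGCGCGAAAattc
ZYP1a (chr1:7865264-7865513, minus strand): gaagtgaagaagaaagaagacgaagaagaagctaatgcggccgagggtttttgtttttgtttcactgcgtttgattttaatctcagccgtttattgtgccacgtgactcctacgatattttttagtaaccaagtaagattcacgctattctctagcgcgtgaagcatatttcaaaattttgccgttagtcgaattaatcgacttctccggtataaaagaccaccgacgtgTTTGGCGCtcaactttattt
AT3G48540 (chr3:17992040-17992289, minus strand): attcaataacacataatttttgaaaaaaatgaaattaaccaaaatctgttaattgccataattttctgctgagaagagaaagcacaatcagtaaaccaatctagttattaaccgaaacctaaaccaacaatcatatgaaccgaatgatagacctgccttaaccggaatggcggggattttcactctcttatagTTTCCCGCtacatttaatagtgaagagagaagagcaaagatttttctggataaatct
RPA70B (chr5:2571707-2571956, plus strand): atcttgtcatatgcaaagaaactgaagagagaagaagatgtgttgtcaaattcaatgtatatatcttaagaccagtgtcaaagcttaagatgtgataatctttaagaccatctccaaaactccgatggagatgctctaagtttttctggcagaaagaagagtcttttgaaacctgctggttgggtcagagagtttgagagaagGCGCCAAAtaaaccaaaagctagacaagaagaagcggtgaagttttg

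Counted from the start base, the site covered positions -9 to -2 in ORC2, -14 to -7 in AT1G07270, -12 to -5 in GR1 and -20 to -13 in ZYP1a. It lay farther upstream in RPA70B (-47 to -40) and AT3G48540 (-57 to -50). In POLA2 and BRCA1 it lay just after the start, at 21 to 28 and 32 to 39. The others with a site were AT1G26330, AT2G44580, AT3G11000, AT4G16807 and AT5G07380. TTTCCCGC was the form in 5 members, TTTCGCGC and TTTGGCGC in 4 each, and TTTGCCGC in none.

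Other elements were less far from the share over all promoters. A CHR element, TTTGAA or TTCGAA, was in 58.5% of members and 48.7% of all promoters. The MSA core AACGG was in 28.3% and 24.7%, the site II element TGGGCC in 20.8% and 15.5%, and the telo box AAACCCTA in 3.77% and 6.22%. Each was searched on both strands, a promoter with both CHR forms was counted once, and matches to different elements may overlap in position. A match describes letters and not binding.

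**Figure D1:**
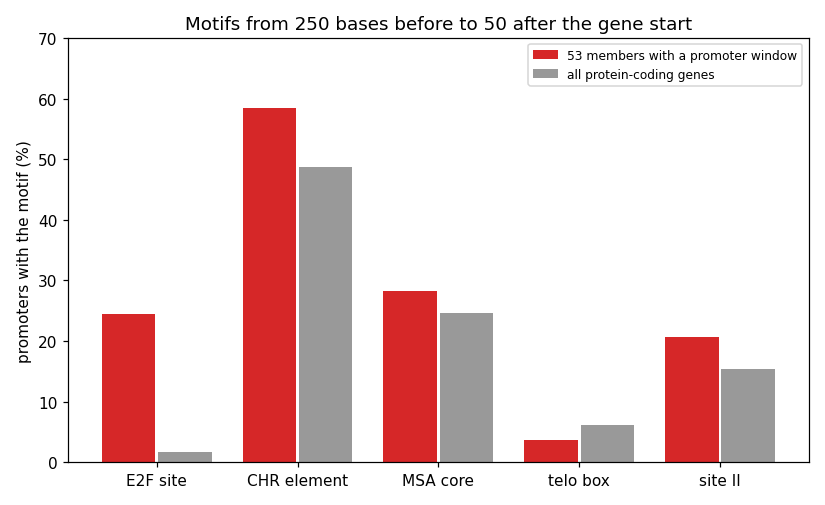
Percent of promoters (vertical axis) that hold each of 5 motifs on either strand in the 53 members with a promoter window (red) and in all protein-coding genes (grey). The E2F site stands at 24.5% against 1.76%, and the other 4 pairs of bars lie closer together.

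The genes were proposed under the name genes raised only in the absence of both BTE1 and BTL1. With WT as the reference, bte1 btl1 was raised for most but not all of them. The word only held for fewer, since btl1 was above WT in every library for 7 and e2f had the highest mean for 30. Every bte1 btl1 library lay above all 15 libraries of the other set for 31. For the counts of 30 and 31 the shares over all features were not computed. In 45 of 60 (75%) every bte1 btl1 library lay above every WT library, against 22.4% of all features at 1 CPM or more. In 11 the libraries overlapped, and in 4 (AT3G49160, AT1G33615, AT4G13572 and AT3G50570) every bte1 btl1 library lay below every WT library, against 24.3% of all features. In btl1 itself 14 members were below WT in every library (background 18%), 7 were above (21.9%) and 39 overlapped. Among the 45, btl1 overlapped WT in 34, lay above it in 7 and below it in 4. Of the 15 members not above WT, 10 were among those with btl1 below WT. For the 45, the median ratio to WT was 2.22 in bte1 btl1 and 1.04 in btl1, and for the 15 it was 1.31 and 0.58. WT, bte1, btl1 and bte1 btl1 all entered the choice of members, so these counts describe them and carry no test.

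**Figure D2:**
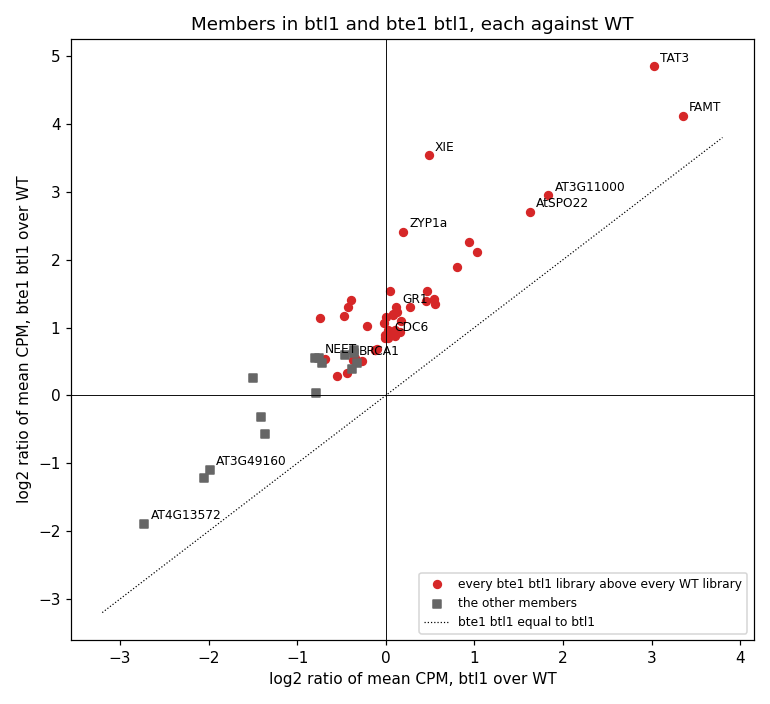
Each point is 1 of the 60 genes, placed by the log2 ratio of mean CPM in btl1 over WT (horizontal) and in bte1 btl1 over WT (vertical), and the dotted line marks equal levels in both. Red circles are the 45 genes with every bte1 btl1 library above every WT library, most of them near 0 on the horizontal axis, and grey squares are the other 15, which lie to its left.

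The members were also described by the genotype in which each was highest, the libraries labelled e2f included. The genotype with the highest mean was e2f for 30 members, bte1 btl1 for 21, hid1 for 5 and WT and bte1 hid1 for 2 each. In 8 the 3 bte1 btl1 libraries lay above all 21 others: XIE, ZYP1a, AtSPO22, MAP65-4, DEG8, AT3G11000, AT3G04000 and AT3G61400. The shares of all features with these patterns were not computed, so both sets of counts describe the members only. Within the library set that holds all 3 genotypes, every e2f library lay above every btl1 library for 42 members (70%; 30% of all features), and below for 3 (26.8% of all). Against bte1 btl1, e2f was above for 26 members (32.1% of all features) and below for 17 (23.5%). Low btl1 and high bte1 btl1 libraries chose the members, which favours e2f over btl1 and works against e2f over bte1 btl1, so these counts are a description and nothing is read from them. All 9 libraries of that set lay above the 15 others for AT3G11000 and AtSPO22 (1.38% of all features) and below them for AT4G13572 (1.79%). An effect of library set short of such full separation was not tested.

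DNA replication begins when the origin recognition complex marks an origin and CDC6 helps it to load the replicative helicase. Of the members, 5 belong to this machinery. ORC2, a subunit of the origin recognition complex, had 3.92, 4.54 and 3.89 CPM in bte1 btl1, 2.56, 2.102 and 2.58 in btl1, 2.59, 1.91 and 2.26 in WT and 2.11, 2.48 and 2.24 in bte1. CDC6 had 9.63, 7.55 and 7.52 CPM in bte1 btl1, 4.93, 4.14 and 4.70 in btl1 and 4.43, 5.46 and 3.57 in WT. For both genes the bte1 btl1 libraries stood clear of WT, bte1 and btl1, which overlapped one another. AT1G07270, annotated as a second Cdc6 protein, was at 2.13, 2.73 and 2.46 CPM in bte1 btl1 and 1.51, 1.51 and 0.994 in btl1. POLA2, a subunit of the polymerase alpha-primase that starts new strands, was at 16.9, 16.4 and 16.9 CPM in bte1 btl1, 10.11, 8.67 and 10.3 in btl1, 10.9, 9.89 and 10.4 in WT and 12.4, 11.4 and 12.7 in bte1. The replication protein A subunit RPA70B, which coats single-stranded DNA, was the exception, with 15.2, 11.7 and 14.7 CPM in bte1 btl1, 7.95, 8.08 and 8.35 in btl1 and 12.4, 9.94 and 9.31 in WT. Its bte1 btl1 and WT libraries overlapped, and all 3 btl1 libraries lay below WT. CDC6, RPA70B and 13 other members overlap an annotated neighbour, 1 or more on the opposite strand in each case, and the strand used in counting was not stated, so reads of these pairs cannot be told apart.

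Another 6 members act in DNA repair or in the response to damaged DNA. In 5 of them every bte1 btl1 library lay above every WT library, as in 75% of the 60 members and 22.4% of all features. These 5 are the ones described here. BRCA1, a ubiquitin ligase of recombinational repair, had 13.1, 14.8 and 13.03 CPM in bte1 btl1, 8.28, 6.44 and 7.22 in btl1, 10.2, 9.27 and 8.96 in WT and 105, 102 and 98.0 in e2f. The step from btl1 to bte1 btl1 was small beside the level in e2f. GR1, a gamma-response protein of double-strand break repair, had 5.09, 5.52 and 5.38 CPM in bte1 btl1 and 2.30, 2.63 and 2.12 in btl1, against 1.76, 2.40 and 2.35 in WT. MSH3, a mismatch repair protein, had 5.02, 4.40 and 5.77 CPM in bte1 btl1 and 2.50, 2.69 and 3.18 in btl1. XRCC3, a protein of recombinational repair, was among the lowest members, with 1.58, 1.61 and 1.82 CPM in bte1 btl1 and 0.985, 1.05 and 0.861 in btl1. NAC044, a transcription factor that arrests the cell cycle after DNA damage, had 3.99, 4.54 and 3.57 CPM in bte1 btl1, 2.63, 1.97 and 1.13 in btl1, 1.05, 1.29 and 0.478 in WT and 10.7, 9.88 and 11.3 in hid1.

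Of the members, 2 are known from meiosis. ZYP1a, the transverse filament protein of the synaptonemal complex, had 10.8, 10.7 and 11.9 CPM in bte1 btl1, the widest step among members over 5 CPM, against 2.04, 2.82 and 2.32 in btl1, 1.76, 2.13 and 2.39 in WT and 2.02, 1.79 and 2.81 in bte1. All 7 other genotypes lay below it, e2f included (3.86, 6.95 and 5.03 CPM). Its near-identical neighbour ZYP1b averaged 7.57 CPM in bte1 btl1 (SD 0.851, n = 3) and 1.78 in btl1 (SD 0.256), and was no member because bte1 (2.54 CPM) exceeded WT (1.77 CPM) by more than the rule allows. How reads were shared between the copies is not stated. AtSPO22, a homologue of the yeast crossover protein Zip4, had 3.51, 5.52 and 4.34 CPM in bte1 btl1, 2.69, 2.102 and 1.52 in btl1 and 1.05, 0.310 and 0.696 in WT. Here btl1 was already above WT in every library, and all 9 libraries of that set lay above the 15 others, so genotype and library set cannot be told apart for the step from WT.

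The cytoskeleton group had 5 members, all of them with bte1 btl1 above WT, as in 75% of the 60 members and 22.4% of all features. The group was formed after the values were seen, so nothing is read from this count. MAP65-4, which cross-links microtubules of the spindle, had 20.9, 24.6 and 22.3 CPM in bte1 btl1, 13.00, 13.2 and 13.3 in btl1, 12.9, 11.2 and 11.3 in WT and 15.7, 15.4 and 15.8 in e2f. MAP65-5 of the same family had 7.22, 6.78 and 7.52 CPM in bte1 btl1, 3.81, 3.35 and 2.85 in btl1 and 15.8, 19.9 and 17.2 in e2f. The relatives took opposite orders, bte1 btl1 over e2f for MAP65-4 and e2f over bte1 btl1 for MAP65-5, with no overlap in either case. AT4G11990, annotated as a cell cycle regulated microtubule-associated protein, had 4.47, 4.68 and 3.50 CPM in bte1 btl1 and 2.36, 2.17 and 2.25 in btl1. The calmodulin-binding protein iqd8 had 11.2, 11.0 and 11.1 CPM in bte1 btl1 and 7.49, 6.37 and 5.70 in btl1. XIE, a myosin XI motor, had the widest ratio of all members. It was at 2.13, 1.75 and 2.14 CPM in bte1 btl1 and 1.27, 1.14 and 1.28 in e2f, and in the 6 other genotypes its highest library was below 0.5 CPM.

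**Figure D3:**
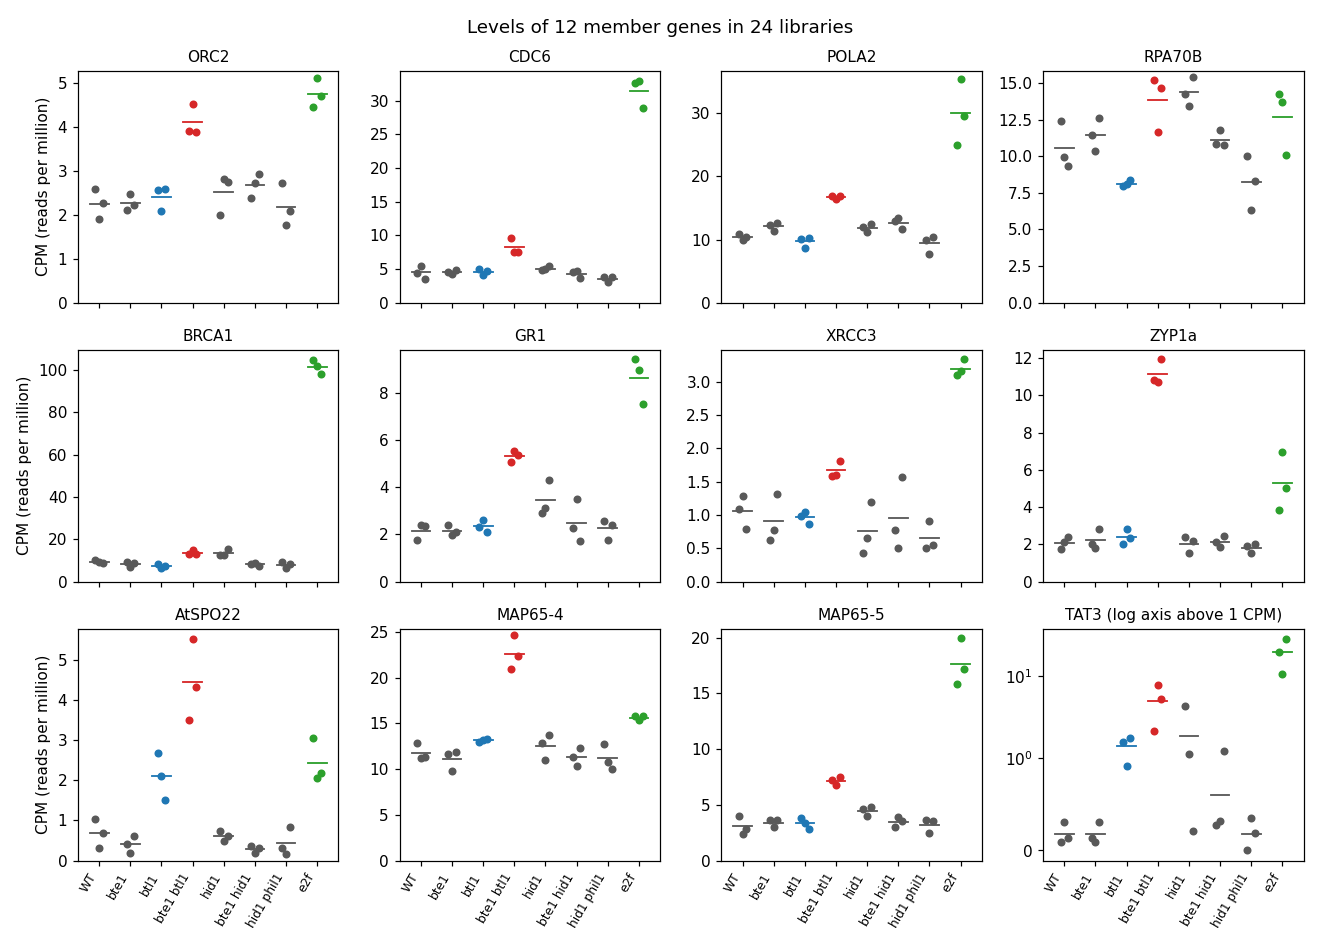
CPM (vertical axes, from 0, each with its own scale, logarithmic above 1 CPM for TAT3) of 12 members in the 24 libraries, with 1 point per library and a line at the mean of each genotype; btl1 is blue, bte1 btl1 red and e2f green. ORC2, CDC6, POLA2, GR1, XRCC3 and MAP65-5 have a mean in bte1 btl1 over the means of the grey genotypes and a mean in e2f over that of bte1 btl1, whereas ZYP1a, AtSPO22 and MAP65-4 are highest in bte1 btl1.

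A group of 8 members was assigned here to defence, jasmonate or calcium signalling, and several had widely spread replicates. The annotation of DELTA-VPE, 1 of the 8, names no such role. TAT3, a tyrosine aminotransferase induced by jasmonate, had 2.13, 7.76 and 5.25 CPM in bte1 btl1, 1.58, 0.919 and 1.79 in btl1, 0.0836, 0.310 and 0.131 in WT, 4.30, 1.14 and 0.207 in hid1 and 19.4, 10.7 and 28.0 in e2f. FAMT, a methyltransferase for farnesoic acid, had 1.72, 2.52 and 1.82 CPM in bte1 btl1, 0.985, 1.31 and 1.26 in btl1, 0.0836, 0.177 and 0.0870 in WT and 19.8, 4.62 and 15.7 in e2f. In both, btl1 was already above every WT library, and hid1 libraries differed widely among themselves. The calmodulin-like CML41 had 1.65, 2.38 and 1.75 CPM in bte1 btl1, 0.788, 0.657 and 1.59 in btl1 and 9.87, 12.1 and 13.7 in e2f. CNGC19, a calcium channel gated by cyclic nucleotides, had 1.31, 1.54 and 2.33 CPM in bte1 btl1 and 0.657, 0.394 and 0.795 in btl1. The remaining 4, the transcription factor WRKY41, the thaumatin-like protein TLP1, the lectin JAL23 and the vacuolar processing enzyme DELTA-VPE, averaged 1.71 to 3.11 CPM in bte1 btl1. WRKY41, TLP1 and JAL23 overlapped WT there.

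The other 34 members were placed in none of these groups, AT2G37070 with its F-actin-binding annotation included. NEET, an iron-sulfur protein of chloroplasts and mitochondria, and DEG8, a protease of the thylakoid lumen, had the highest levels per length among members with a symbol, with mean deposited FPKM (fragments scaled by gene length and library size) in bte1 btl1 of 50.1 (SD 13.6) and 39.2 (SD 1.54). The next was MAP65-4 at 9.84 (SD 0.870). NEET had 30.0, 38.7 and 22.2 CPM in bte1 btl1, 7.09, 14.5 and 14.9 in btl1 and 29.0, 15.5 and 17.2 in WT, and every btl1 library was below every WT library. DEG8 had 77.0, 69.0 and 69.6 CPM in bte1 btl1, 48.5, 31.1 and 41.1 in btl1 and 56.9, 60.6 and 59.3 in WT, with its lowest mean in btl1. The floral repressor FLC had 8.05, 9.64 and 8.23 CPM in bte1 btl1, 4.53, 3.94 and 2.65 in btl1, 5.65, 5.46 and 6.74 in WT and 11.4, 6.61 and 10.07 in bte1 hid1. It was lowest in e2f, at 0.470, 1.05 and 1.23 CPM.

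An E2F site was found in 6 of these members, which the annotation describes at most by domain. AT3G48540, of the cytidine and deoxycytidylate deaminase family, had 4.88, 3.98 and 3.89 CPM in bte1 btl1, 2.04, 2.50 and 2.19 in btl1 and 6.49, 11.3 and 10.3 in e2f. AT1G26330, a DNA-binding protein, had 7.22, 6.78 and 7.52 CPM in bte1 btl1 (from 105, 97 and 116 reads, the same counts as for MAP65-5 in these libraries), 3.81, 3.68 and 4.11 in btl1 and 12.3, 14.2 and 12.3 in e2f. AT3G11000, with a DCD domain, had 8.74, 8.46 and 9.21 CPM in bte1 btl1, 4.598, 3.28 and 4.31 in btl1 and 1.00, 1.02 and 1.39 in WT. In the last of these the step from WT to btl1 was already present in every library. AT5G07380, uncharacterised, had 3.71, 5.03 and 4.80 CPM in bte1 btl1 and 10.3, 11.3 and 11.7 in e2f, and AT2G44580 and AT4G16807 averaged 6.58 and 3.90 CPM in bte1 btl1.

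The remaining members include the 4 that were below WT in bte1 btl1. AT4G13572, uncharacterised, had 3.10, 2.45 and 2.79 CPM in bte1 btl1, 1.97, 1.31 and 1.39 in btl1, 9.24, 10.3 and 11.4 in WT and 0.611, 1.37 and 1.83 in e2f, so all 9 libraries of that set lay far below the others. AT3G49160, of the pyruvate kinase family, had 3.30, 5.24 and 3.11 CPM in bte1 btl1, 1.38, 2.63 and 2.25 in btl1 and 9.62, 7.67 and 7.57 in WT. The noncoding RNA AT1G33615 and the glycoprotein gene AT3G50570 averaged 1.06 and 2.04 CPM in bte1 btl1 against 2.45 and 3.04 in WT. For these genes a level above btl1 was still a level below WT.

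AT4G13690 and AT2G37070 had means close to WT in btl1 and were far higher in e2f, which does not hold for all the others named here. AT4G13690, an RNA-binding protein, had 3.92, 5.10 and 6.68 CPM in bte1 btl1, 2.50, 2.17 and 2.58 in btl1, 2.34, 1.996 and 2.52 in WT and 17.7, 24.1 and 21.9 in e2f. AT2G37070, annotated by an F-actin-binding domain, had 2.27, 2.03 and 2.01 CPM in bte1 btl1, 1.05, 1.58 and 0.861 in btl1 and 9.26, 11.8 and 13.7 in e2f. AT3G04000, a Rossmann-fold protein, was instead highest in bte1 btl1, at 12.2, 11.0 and 10.11 CPM, against 6.90, 5.25 and 7.02 in btl1 and 9.50, 9.74 and 8.54 in e2f. The mitochondrial NAD(P)H dehydrogenase NDB4, the translation factor AT2G36885, AT1G32570, AT3G48770, AT1G29090, AT1G30660, AT3G61400, AT3G27250, AT2G41450, AT4G22214, AT4G09920, AT3G49970, AT2G30945, AT2G30640.1 and the pseudogene AT2G07709 averaged 1.17 to 17.8 CPM in bte1 btl1. AT2G36885 was the one of these above 5 CPM.

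In 3 members with plastid-type identifiers 1 library stood out. ATCG00020 had 181, 51.6 and 50.2 CPM in bte1 btl1 and 49.1, 36.1 and 46.5 in btl1, so replicate 1 of bte1 btl1 stood far above the others. ATCG01100 had 2.41, 1.61 and 1.17 CPM in bte1 btl1 and 1.05, 0.788 and 0.795 in btl1, and ATCG01010 had 1.44, 0.839 and 0.843 and 0.788, 0.263 and 0.663. In each it was replicate 1 of bte1 btl1 that was highest. Over the 133 features with such identifiers, the summed level in bte1 btl1 was 290.5 CPM in the lowest library and 722 in the highest, and it ran from 257 to 335 in btl1. The part of that library in these memberships was not tested.

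The members nearest to the limits of the rule show how it cut. Just inside the ratio of 1.7 lay FAMT (1.701), RPA70B (1.704) and ORC2 (1.705), and just outside RMI1 (1.683), AT3G27640 (1.683) and AT3G54060 (1.689). By bte1 over WT, AT1G30660 (1.198), POLA2 (1.167) and AT2G07709 (1.153) were just inside and AT3G57440, NAC103 and AT5G07650 (1.202, 1.202 and 1.213) just outside. By level, ATCG01010, AT1G33615 and AT4G09920 (1.04, 1.06 and 1.17 CPM) were inside and HTR11, CAD2 and SETH1 (0.91, 0.90 and 0.90 CPM) outside.

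Comparisons that the rule did not use ask whether the same genes move when BTE1 is lost in hid1 seedlings, when HIL1 regulation is changed there, when HID1 is lost, and in the libraries labelled as the E2F triple mutant. All 60 members passed the filter on low counts and were tested among 21897 genes with edgeR's quasi-likelihood test and Benjamini-Hochberg adjustment, and a gene is called at an adjusted p under 0.05. As whole seedlings were used, fewer cells of a type and less RNA per cell cannot be told apart in any of these values. The comparisons of bte1 hid1 and of hid1 phil1 share the hid1 libraries, and those of hid1 and e2f share the WT libraries, which also entered the rule as the denominator of bte1 over WT.

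Most of the members differed between e2f and WT, where the higher reads on E2FA and E2FC in e2f left the label unchecked. In e2f against WT, 38 of 60 rose (63.3%, against 26.4% of all genes) and 6 fell (10%, against 25.8%), with a median log2 fold change of 1.11 against -0.010 over all genes. The replication gene CDC6 rose by 2.77 (SE 0.14, adjusted p = 4.56e-14), from 4.43, 5.46 and 3.57 CPM in WT to 32.6, 32.9 and 28.8 in e2f. POLA2 rose by 1.48 (SE 0.11, adjusted p = 5.93e-11), ORC2 by 1.03 and AT1G07270 by 1.81, so of the replication group only RPA70B was not called, at 0.22 (SE 0.14, adjusted p = 0.193). All 6 repair and damage-response members rose. BRCA1, the member with the smallest adjusted p, rose by 3.38 (SE 0.11, adjusted p = 6.73e-17), NAC044 by 4.83 (SE 0.22, adjusted p = 1.38e-14), GR1 by 1.95 (SE 0.20, adjusted p = 2.27e-08) and MSH3 by 1.56 (SE 0.17, adjusted p = 4.75e-08). XRCC3 rose by 1.56 (SE 0.33, adjusted p = 0.000421).

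Both meiosis members rose in e2f, ZYP1a by 1.29 (SE 0.21, adjusted p = 1.98e-05) and AtSPO22 by 1.77 (SE 0.38, adjusted p = 0.000449). Of the cytoskeleton group MAP65-5 rose by 2.48 (SE 0.16, adjusted p = 7.06e-12), XIE by 2.75, iqd8 by 0.75 and MAP65-4 by 0.36 (SE 0.10), while AT4G11990 was not called, at 0.31 (SE 0.17, adjusted p = 0.131). In the defence group 6 of 8 rose, where 63.3% of the 60 members and 26.4% of all genes did. CML41 rose by 3.96 (SE 0.29, adjusted p = 5.45e-11), the smallest adjusted p of the group. FAMT and TAT3 had the largest changes, 6.74 and 6.72, with SE of 0.70 and 0.87. WRKY41 and DELTA-VPE were not called. Genes of these responses that are no members moved the same way in e2f. Of 15 measured jasmonate genes 13 rose and none fell, where 26.4% of all genes rose and 25.8% fell. The same counts held for 15 salicylic acid genes. Of the other 34 members 16 rose and 6 fell. FLC fell by 2.72 (SE 0.26, adjusted p = 4.37e-09) and AT4G13572, an uncharacterised protein, by 3.05; the remaining falls were AT3G49970, ATCG01100, AT4G22214 and AT3G27250, by 1.07 to 1.64.

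Members that stood above WT in bte1 btl1 and those that did not were also described apart. Of the 45, 33 rose and 2 fell in e2f, and of the 15, 5 rose and 4 fell, where 26.4% of all genes rose and 25.8% fell. The same WT libraries set the split and the change in e2f, so nothing is read from the difference. An E2F site was in 12 of the 37 members with a promoter window that rose and in 1 of the 16 others, which was RPA70B. The MSA core was in 14 of the 37 and 1 of the 16. These comparisons cross the library sets, and the e2f libraries differed from WT in tissue markers too: the summed level of 23 photosynthesis genes was 52996 to 66186 CPM in e2f and 103184 to 107144 in WT, and 20 of those 23 fell. The summed level of 18 seed genes was 9.31 to 157 CPM in e2f and 2.64 to 5.44 in WT, that of 16 root genes 257 to 281 and 303 to 341, and that of 16 flower genes, the member FLC among them, 50.4 to 65.3 and 40.5 to 49.2. The part of these differences in the members' rise was not tested. Some calls did not outlast the loss of 1 library. JAL23 was no longer called without WT replicate 1 (adjusted p = 0.0925) or e2f replicate 1 (0.17), TLP1 without WT replicate 1 (0.177) or e2f replicate 1 or 3 (0.0887 and 0.108), and AT2G44580 without e2f replicate 2 (0.0529). Among the falls, ATCG01100 was lost without e2f replicate 1 or 3 (0.0634 and 0.0897), AT4G22214 without WT replicate 2 or 3 or e2f replicate 1 or 2 (up to 0.0956) and AT3G27250 without WT replicate 1 or 3 or e2f replicate 2 or 3 (up to 0.2). The log2 change of AT3G27250 was -2.04 without e2f replicate 1 and -0.70 without e2f replicate 3, that of ATCG01100 -2.99 without e2f replicate 2, that of JAL23 1.02 without e2f replicate 1 and that of TLP1 0.47 without WT replicate 1.

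**Figure D4:**
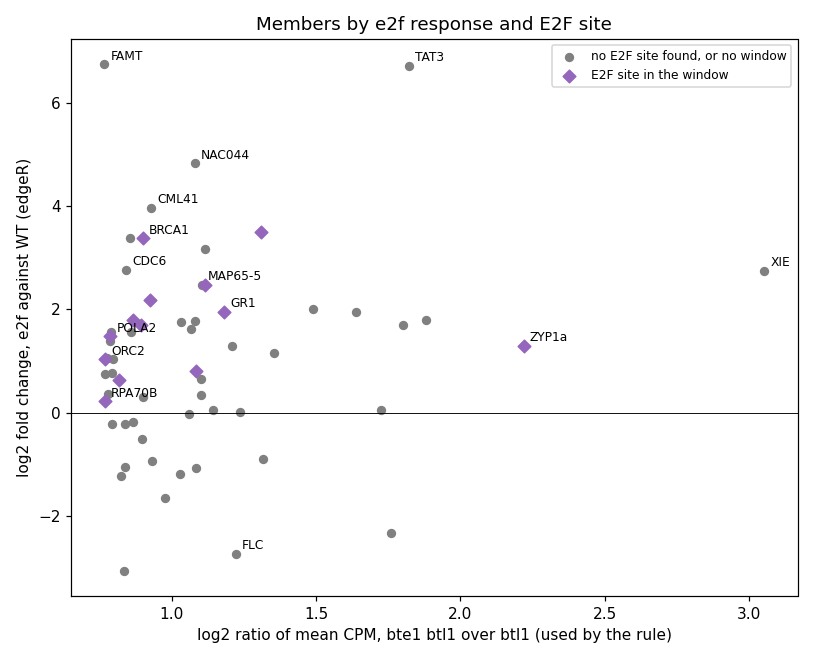
Each point is 1 member, placed by the log2 ratio of mean CPM in bte1 btl1 over btl1, which chose the members (horizontal), and by the log2 fold change of e2f against WT from edgeR (vertical). Purple diamonds hold an E2F site in the 300-base promoter window and all 13 lie above 0, while grey circles spread from -3.05 to 6.74.

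Losing BTE1 in hid1 seedlings did not raise the members as a group, but the choice of members favoured this outcome. The rule left out genes that were raised in bte1 over WT beyond its limit, and btl1 is not mutated in those genotypes. It is not mutated in bte1 hid1 or hid1 either. The comparison therefore cannot decide whether the members respond to the loss of BTE1 in a second background, and nothing is read from the few rises. In bte1 hid1 against hid1, 2 rose (3.33%, against 4.33% of all genes) and 4 fell (6.67%, against 3.11%). The median log2 fold change was -0.24 against 0.01 over all genes. NAC044 fell by 1.96 (SE 0.20, adjusted p = 2.5e-07), from 10.7, 9.88 and 11.3 CPM in hid1 to 2.58, 2.46 and 3.33 in bte1 hid1. BRCA1 fell by 0.74 (SE 0.12, adjusted p = 0.000188), from 12.5, 12.6 and 15.3 to 8.27, 8.84 and 7.53 CPM. Both genes thus went down where BTE1 was lost in hid1. Their higher level in bte1 btl1 than in btl1 was required of every member by the rule, so nothing is read from the opposite direction. HIL1 averaged 3.88 CPM in hid1, 20.9 in bte1 hid1 and 27.4 in hid1 phil1, so it was higher in both double mutants. The part of HIL1 in these falls was not tested. The other falls were AT2G36885, annotated as a translation initiation factor, by 0.94 (SE 0.21, adjusted p = 0.00886) and iqd8 by 0.50 (SE 0.13, adjusted p = 0.019). FLC rose by 0.91 (SE 0.20, adjusted p = 0.00597) and AT4G22214, a defensin-like gene, by 1.75 (SE 0.42, adjusted p = 0.011). The call of FLC was lost without bte1 hid1 replicate 1 (adjusted p = 0.0547), and that of iqd8 without hid1 replicate 1 (0.113) or bte1 hid1 replicate 1 (0.122). The call of AT2G36885 was lost without hid1 replicate 3 (0.0567) or bte1 hid1 replicate 1 (0.0563), and that of AT4G22214 without hid1 replicate 1 (0.0738) or bte1 hid1 replicate 3 (0.106).

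In hid1 itself, NAC044 rose by 3.49 over WT (SE 0.23, adjusted p = 6.16e-10) and BRCA1 by 0.49 (SE 0.12, adjusted p = 0.0169). AT1G30660, a nucleic acid-binding protein, rose by 1.2 (SE 0.32, adjusted p = 0.0375), and AT3G50570, a hydroxyproline-rich glycoprotein, fell by 0.90 (SE 0.23, adjusted p = 0.0262). These 3 rises (5%, against 1.73% of all genes) and 1 fall (1.67%, against 1.72%) were all the calls, with a median of 0.16 against 0.00085 over all genes. The call of BRCA1 was lost without WT replicate 2 (adjusted p = 0.0688), WT replicate 3 (0.0781) or hid1 replicate 3 (0.128). AT1G30660 was lost without WT replicate 2 (0.163), WT replicate 1 (0.124) or hid1 replicate 1 or 2 (0.0828 and 0.199), and AT3G50570 without WT replicate 3 (0.137), hid1 replicate 1 (0.159) or hid1 replicate 3 (0.0597).

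With the HIL1 promoter mutated in hid1, 1 member rose (1.67%, against 3.53% of all genes) and 8 fell (13.3%, against 2.92%). The median was -0.41 against -0.0097 over all genes. NAC044 fell by 3.22 (SE 0.22, adjusted p = 1.53e-09), to 1.15, 0.950 and 1.25 CPM in hid1 phil1, which overlaps WT. BRCA1 fell by 0.71 (SE 0.12, adjusted p = 0.000672) and RPA70B by 0.78 (SE 0.14, adjusted p = 0.00155), the latter from 14.2, 13.4 and 15.4 CPM in hid1 to 10.05, 6.30 and 8.30. CDC6 fell by 0.49 (SE 0.15, adjusted p = 0.0493), a call that each of the 6 libraries decided, since leaving any out took the adjusted p to between 0.0737 and 0.189. FLC rose by 0.67 (SE 0.20, adjusted p = 0.0488), a call lost without 5 of the 6 libraries (adjusted p up to 0.19; hid1 phil1 replicate 1 was the exception). AT2G41450, AT1G30660, AT4G13572 and AT4G16807 made up the other falls, by 0.69 to 1.49. AT2G41450 lost its call without hid1 phil1 replicate 2 (adjusted p = 0.0512) and AT1G30660 without hid1 replicate 2 (0.0612), and AT4G13572 and AT4G16807 lost theirs without any 1 of the same 5 libraries as FLC (up to 0.192 and 0.223). The count of falls went to 4 without hid1 replicate 2, 4 without hid1 phil1 replicate 2 and 5 without hid1 phil1 replicate 3. Without hid1 phil1 replicate 2, the library with 9 reads on HID1, the falls that remained were NAC044, BRCA1, RPA70B and AT1G30660.

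**Figure D5:**
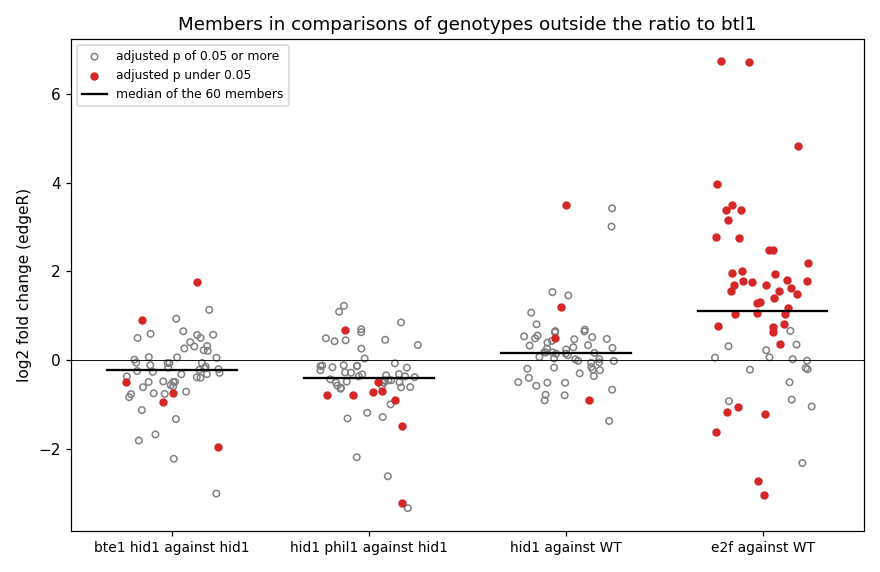
Log2 fold changes from edgeR (vertical axis) of the 60 members in the 4 comparisons that are outside the ratio to btl1, with 1 point per gene, filled where the adjusted p was under 0.05, and a line at the median. The medians stand at -0.24, -0.41, 0.16 and 1.11 from left to right, and only in e2f against WT do filled points make up most of the genes.

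The wider pathways around the members were followed with gene lists, which did not hold every member of the role groups. The replication list had no match to AT1G07270, POLA2 or RPA70B, the repair list none to MSH3 or XRCC3, and the meiosis list none to AtSPO22. Of 28 measured DNA replication genes, 2 were members (ORC2 and CDC6), which the rule itself placed above btl1. The log2 difference of bte1 btl1 from btl1 was above 0 in 27 of the 28, and in 10749 of all 21897 genes tested. Its median was 0.61 against -0.0025 over all genes tested. In e2f 25 of the 28 rose and none fell, where 26.4% of all genes rose and 25.8% fell. In bte1 hid1 against hid1 2 rose and none fell (4.33% and 3.11% of all genes). In hid1 phil1 against hid1 none rose and 6 fell (3.53% and 2.92%). In hid1 against WT 2 rose and none fell (1.73% and 1.72%). Of 22 genes of the DNA damage response and repair, 3 were members (BRCA1, GR1 and NAC044) and the median difference of bte1 btl1 from btl1 was 0.54. In e2f 18 of those 22 rose and 1 fell, and in bte1 hid1 against hid1 1 rose and 5 fell. In hid1 phil1 against hid1 none rose and 10 fell. In hid1 against WT 8 rose and none fell.

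Mitosis and cytokinesis had 30 measured genes and no member. Their median difference of bte1 btl1 from btl1 was 0.30 and 29 of 30 were above 0, below the 1.7-fold that the rule asks for. In e2f 28 of the 30 rose, and in bte1 hid1 against hid1 none rose and 16 fell. In hid1 phil1 against hid1 none rose and 11 fell, so falls were not particular to the loss of BTE1. In hid1 against WT 11 rose and none fell. The shares over all genes are those given with the replication list. Of 23 meiosis genes, ZYP1a was the single member, the median difference was 0.38, and 14 rose and 3 fell in e2f. The DREAM complex and E2F family held 19 measured genes, of which none was a member and the median difference was 0.13. No member was on the jasmonate, salicylic acid, photosynthesis or H3K4 methylation lists, and FLC alone was on the flower list. The root list stood at a summed 227 to 262 CPM in bte1 btl1 and 264 to 303 in btl1, and the seed list varied within genotypes, from 5.99 to 108 CPM in bte1 btl1 and 4.97 to 109 in btl1.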

How the data were processed

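The authors deposited raw read counts per gene for 24 libraries and FPKM values per gene for the same libraries. The submitters' processing notes name fastp, HISAT2 2.1.0, SAMtools 1.6 and the TAIR10 build. Which tool made the counts or the FPKM values, and with which strand setting, is not given in the sources used here. The deposited FPKM table also lists 22109 assembled loci with values in 15 libraries and none in the other 9, which gave the 2 library sets, and FPKM served only for levels per length. Counts were scaled to CPM by library total. The members, roles and gene lists were chosen with earlier results of these data known, and the role groups after the members' values were seen.

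Tests were run with edgeR 4.0.16 under R 4.3.3. A single one-way model of the 8 genotypes was fitted to all 24 libraries with TMM factors of 0.922 to 1.03 and robust quasi-likelihood dispersions. The filterByExpr filter by genotype kept 21897 genes and removed 11715, and p-values were adjusted by Benjamini-Hochberg over all genes kept. The script was tested on simulated data. Depth per library was 14309396 to 23912716 counted reads. Genes are named by a rule: the 12 members with a symbol, 5 CPM or more and the largest ratio to btl1, the 12 with a symbol and the highest FPKM, members on a gene list, the 8 with a symbol and the smallest adjusted p per comparison and direction, and 3 on each side of each threshold; further members are named from the role groups. Names and promoters came from TAIR10.1, and promoter coordinates are of that build. Alternatives were RLE factors, no filter, DESeq2 1.42.0, fewer genotypes in the fit, a replicate block, other limits of the rule and leaving out each library. The values of 1 member are not reported here.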

Additional observations from a re-analysis of the deposited data

How the results depend on the processing

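The 60 members depend on the limits of the rule: 131 genes met it at a ratio of 1.5 and 30 at a ratio of 2, 53 and 69 with bte1 over WT under 1.1 and 1.3, 45 at 2 CPM, and 83, including all 60, with TMM-adjusted library sizes. Leaving out 1 library gave 59 to 84 genes and kept 46 to 60 of the 60, the fewest without btl1 replicate 2. The count of members above WT in every library was 44 with FPKM, 46 with TMM and 46 to 49 with a library left out. In e2f against WT 35 to 38 rose and 4 to 7 fell under every alternative run (36 to 38 and 4 to 6 without 1 library). The other comparisons have few calls. In bte1 hid1 against hid1 the 2 rises became 1 with only the genotypes compared in the fit and 1 to 2 without 1 library, and the 4 falls became 2 to 6 without 1 library, 2 being the count without bte1 hid1 replicate 1. In hid1 phil1 against hid1 the 8 falls became 3 with only the genotypes compared and 4 to 8 without 1 library, and the 1 rise became 0 to 1. In hid1 against WT the 3 rises became 5 with DESeq2 and 1 to 4 without 1 library, and the 1 fall 0 to 1. In those cases where a count moved, the cause was not tested. The replicate numbers do not pair the samples, since deviations of same-numbered libraries correlated at -0.0818 to 0.14. With the replicate number as a block, bte1 hid1 against hid1 had 7 falls, hid1 phil1 against hid1 had 0 rises and 4 falls, hid1 against WT had 5 rises and 2 falls, and e2f against WT 35 and 7. Among the members called in a comparison, no direction reversed in the alternatives run. Of 484 values in e2f against WT 24 lost the call, of 66 in bte1 hid1 against hid1 8, of 99 in hid1 phil1 against hid1 36 and of 44 in hid1 against WT 14. Depth limits most the 15 members under 2 CPM in bte1 btl1.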
